A study of Mus musculus with 6 samples.

Results

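The interfollicular epidermis (IFE) is the skin surface between the openings of the hair follicles (HFs), and its basal cells are the keratinocytes that sit on the basement membrane and renew the layers above. In these single-cell RNA-seq data of mouse dorsal skin they were chosen by the counts of unique molecular identifiers (UMIs) in each barcode. A barcode was taken with 500 to 7000 detected genes, at most 10% mitochondrial UMIs, at least 100 UMIs of Krt5 and Krt14 together and under 100 of Krt1 and Krt10 together per 10000 UMIs, at least 2 UMIs over Thbs2, Smoc2 and Mmp3, and no UMI of Lhx2, Lgr5 or Krt24. This selected 12760 barcodes, called IFE basal cells below, of the 55177 that met the limits on genes and mitochondrial UMIs and of the 61031 deposited. The 10 genes named here were used to choose the cells, so their levels are a description and not a result.

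Cells came from wildtype FVB males aged 55 to 57 days whose dorsal skin was shaved and waxed, which removes the club hairs and starts a new hair cycle. Skin was collected 0, 4 and 16 h and 2, 4 and 6 days after depilation, and the labels give the 0 h mice the same treatment as the others. At each time point the skins of 2 mice were digested separately, and equal numbers of their cells were mixed and run as 1 library, so values of single mice cannot be recovered and no time point has a replicate. Differences between time points are therefore differences between single libraries, given with counting intervals and without a test.

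IFE basal cells are held to the basement membrane by hemidesmosomes, in which integrin α6β4 and collagen XVII bind laminin, and their keratin filaments are built from keratins 5 and 14. They divide within the layer or leave it, and cells that leave replace these keratins with keratins 1 and 10. After injury, keratinocytes at a wound edge are known for making keratins 6, 16 and 17, EGF receptor ligands, proteases and cytokines. Waxing pulls on the epidermal surface as well as on the hairs, and these cells were captured together with the HF cells that the study set out to follow.

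Values given 6 at a time run in this order of collection, from the library of 0 h to that of 6 d. The libraries gave 2362, 2491, 3091, 2377, 1190 and 1249 IFE basal cells with 9010, 9409, 11590, 8308, 6732 and 7528 UMIs in the median cell, and their summed counts held 23095628, 25251089, 39350948, 22999257, 8989505 and 10590875 UMIs. Levels are CPM, the UMIs of a gene scaled to 1000000 UMIs of such a sum, with exact Poisson 95% intervals that cover counting error only. At 20 CPM the interval reached at most 15.9% from the value in the shallowest sum, that of 4 d, and 7.24% in the deepest, that of 16 h. Free RNA in the droplets gives UMIs to cells that do not make a gene, so levels are set beside those of a T cell gate, barcodes with at least 2 UMIs of T cell genes and little Krt5 and Krt14 (231, 399, 255, 895, 877 and 321 cells). Its median barcode held 2780, 2266, 2320, 2071, 2473 and 2634 UMIs, far fewer than an IFE basal cell, so UMIs per barcode are added where the comparison depends on depth.

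Some libraries stood apart in ways that IFE basal cells and the T cell gate shared. The ribosomal protein gene Rpl13a was at 3995, 1456, 1663, 3805, 1056 and 1196 CPM in IFE basal cells and at 2974, 983, 1163, 2918, 985 and 1018 CPM in the T cell gate, high at 0 h and 2 d in both. All ribosomal protein genes together took 26.2, 19.3, 23.1, 26.9, 23.8 and 26.98% of the UMIs of IFE basal cells. Genes of this kind are not described as responses to depilation. Of 60599 barcode sequences, 430 occurred in more than 1 library, as did 14 of the 12746 barcode sequences of IFE basal cells. Doublet scores marked 5.72, 8.03, 8.31, 11.9, 10.5 and 8.01% of the IFE basal cells, and some values are also given without them.

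The 3 genes that admitted a cell changed places over time. Smoc2, which encodes a matricellular calcium-binding protein, was at 326, 59.2, 151, 239, 302 and 262 CPM and was lowest at 4 h. Mmp3, which encodes the matrix protease stromelysin-1, was at 27.5, 451, 116, 54.7, 39.4 and 59.9 CPM and highest at 4 h. Thbs2, which encodes thrombospondin-2, was at 89.4, 178, 158, 99.6, 88.3 and 94.7 CPM. As a consequence 2.03, 30.8, 8.703, 5.64, 6.39 and 6.57% of the IFE basal cells would have had fewer than 2 UMIs without Mmp3, with the highest share at 4 h. Levels of the leading genes at 4 h and the cycling shares were therefore also computed for the cells that Thbs2 and Smoc2 alone would admit. Just inside the limit 611, 597, 654, 792, 492 and 490 cells held exactly 2 UMIs of the 3 genes, and just outside it 635, 842, 764, 975, 759 and 680 otherwise eligible cells held 1.

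IFE basal cells made up 34.1, 32.5, 35.4, 24.9, 9.59 and 12.6% of the barcodes that met the limits on genes and mitochondrial UMIs. Among the barcodes of the basal keratin gate, which meet only the limits on genes, mitochondrial UMIs and keratins, their share was 60.4, 46.5, 52.7, 47.4, 23.7 and 29.1%, with the exact binomial 95% interval 58.8 to 61.9% at 0 h and 22.5 to 24.9% at 4 d. The shares at 4 d and 6 d lay below those of the first 4 libraries on both counts. The limit is on raw UMIs and depth differed between libraries, and after each barcode was thinned to 2000 UMIs the share among passing barcodes with at least 2000 UMIs was 8.26, 11.1, 8.16, 5.67, 2.73 and 2.81%, again lowest at 4 d and 6 d but highest at 4 h. This left out 83, 328, 293, 540, 661 and 215 shallower barcodes. Mmp3, itself highest at 4 h, also admitted cells here, and the thinned share was not computed without it. Thbs2 and Smoc2 alone would admit 2314, 1723, 2822, 2243, 1114 and 1167 cells, of 6925, 7663, 8729, 9534, 12410 and 9916 passing barcodes. By these counts the 4 h library held fewer such cells than 0 h, from more passing barcodes. Shares also depend on how many other cells were released from the skin. The basal keratin gate itself took 56.5, 69.8, 67.2, 52.6, 40.4 and 43.2% of the passing barcodes, and the part of dissociation in these shares was not tested.

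**Figure D1:**
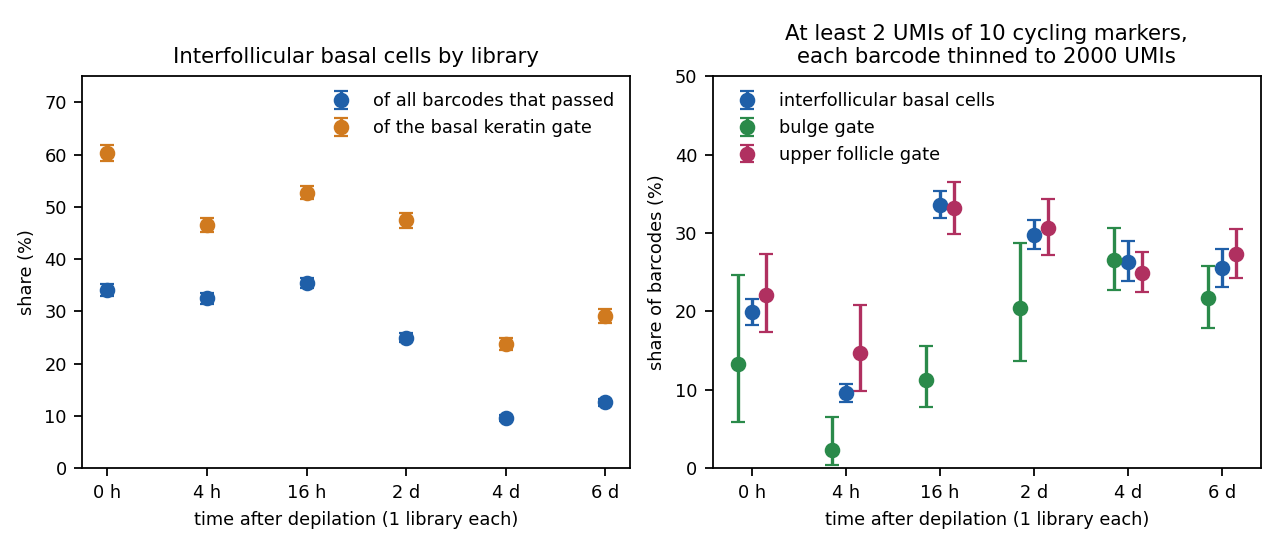
Left, the share of IFE basal cells among all passing barcodes and among the basal keratin gate in each library (y axis, percent), with exact binomial 95% intervals. Right, the share of barcodes with at least 2 UMIs of 10 cycling markers after thinning to 2000 UMIs, for IFE basal cells, the bulge gate and the upper follicle gate. In IFE basal cells this share was 9.56% at 4 h and 33.6% at 16 h.

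Markers that the rule did not use were compared with the cells' label. Ly6a, which encodes the surface antigen SCA-1 that is used to sort IFE cells from HF cells, was at 404, 799, 489, 389, 346 and 381 CPM. In the bulge gate, basal barcodes with at least 2 UMIs of Lhx2, Lgr5 and Krt24 and none of Thbs2, Smoc2 and Mmp3, Ly6a was at 35.4, 18.4, 31.2, 79.3, 24.01 and 19.2 CPM, below IFE basal cells in all 6 libraries. In the upper follicle gate, basal barcodes with at least 2 UMIs of Krt79 and Sostdc1 and none of the 6 genes above, it was at 138, 128, 235, 216, 92.6 and 139 CPM. The bulge stem cell antigen Cd34 was at 0.173, 0.554, 0.432, 0.0435, 1.001 and 0.378 CPM in IFE basal cells against 640.1, 304, 331, 83.7, 53.2 and 76.3 CPM in the bulge gate. The rule and this gate both used bulge genes, so Cd34 is no independent check of the label. The integrin α6 gene Itga6 was higher than in the bulge gate by 1.16 on the log2 scale (edgeR FDR 3.64e-05). The collagen XVII gene Col17a1 differed by 0.44 and was not called (edgeR FDR 0.196). Dlx1, reported to label slow-cycling epidermal cells, was at 0.0433, 0, 0, 0.130, 0.334 and 0.0944 CPM and Slc1a3, a glutamate transporter gene used to label cycling ones, at 6.49, 15.4, 6.76, 4.96, 6.12 and 10.4 CPM, so the cells were not divided by these 2 markers. At least 2 UMIs of Krt79 and Sostdc1 were present in 9.95, 1.16, 13.1, 15.8, 15.6 and 14.7% of the IFE basal cells. At 0 h these cells held 2009 UMIs of Sostdc1 and 232 of Krt79, so the share there rests mostly on Sostdc1. It is therefore not a measure of upper follicle cells alone, and the selection may still hold some of them.

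The 4 h library differed most from 0 h. Among the 5830 genes with at least 20 CPM in either library, 1324 (22.7%) were at least 2-fold higher at 4 h and 876 (15.0%) at least 2-fold lower. At 16 h 325 (5.75%) were higher and 296 (5.24%) lower of 5653 genes. The 2 d library had 108 (2.06%) higher and 243 (4.64%) lower of 5237, and that of 4 d had 135 (2.45%) and 224 (4.07%) of 5506. The 6 d library was nearest to 0 h, with 72 (1.37%) higher and 69 (1.32%) lower of 5240. The median log2 fold change of all these genes was 0.26, 0.23, 0.03, 0.16 and 0.05 in these 5 libraries, and the changes of single genes are read against it. When the sums were scaled by TMM factors in place of total counts, the split between higher and lower genes was 238 to 335 at 16 h and 81 to 323 at 4 d, so the balance of directions at these times depends on the scaling. Across all 6 libraries a smooth curve of hours (natural spline, 3 degrees of freedom, edgeR quasi-likelihood test) called 0 of 13070 genes (0%) at a false discovery rate (FDR) of 0.05. At an unadjusted p under 0.05 it had 152 genes, and the likelihood ratio test of DESeq2 called 35. Such a curve leaves 2 residual degrees of freedom among the libraries, and a level that departs from its neighbours in 1 library counts as spread around the curve.

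Among genes with at least 50 CPM, the largest increase at 4 h was that of Sh2d5 (chr4:138250411-138260968 of GRCm38), which encodes an SH2 domain adaptor protein. Sh2d5 was at 0.476, 115, 5.06, 2.13, 0.667 and 1.700 CPM, 242-fold above 0 h at 4 h (95% interval of the 4 h level 111 to 119 CPM), and 61.7% of the cells held at least 1 UMI at 4 h against 0.296% at 0 h. The 4 h library alone was high, and the 16 h library was next. St3gal4, a sialyltransferase gene, was at 0.693, 63.5, 4.905, 1.57, 1.45 and 1.61 CPM, also highest at 4 h and next at 16 h. In the T cell gate Sh2d5 was at 5.87 CPM at 4 h. St3gal4 was at 27.6, 40.2, 47.1, 24.6, 48.4 and 21.8 CPM there, above IFE basal cells in every library but 4 h.

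Krt6a (chr15:101689928-101694305), the keratin of wound-edge and companion layer cells, was at 10.6, 853, 252, 119, 38.7 and 75.2 CPM. Its 4 h level was 80.4-fold and its 16 h level 23.7-fold that of 0 h, and every later library remained above 0 h. The T cell gate also held Krt6a at 4 h, at 573 CPM. An IFE basal cell held 8.64 UMIs on average and a T cell gate barcode 1.71. Krt6b, a near-identical copy whose reads may be assigned to either gene, was at 37.9 CPM at 4 h against 623 CPM in the T cell gate, so its level in IFE basal cells cannot be told from free RNA. Krt16 was at 680.5, 832, 554, 599, 229.7 and 1154 CPM and Krt17 at 284, 378, 227, 332, 641 and 729 CPM, neither of them at least 2-fold above 0 h at 4 h. At 4 h both were lower than in the T cell gate, which held 2165 and 1781 CPM. Per barcode at 4 h an IFE basal cell held 8.43 UMIs of Krt16 and 3.83 of Krt17, and a T cell gate barcode 6.47 and 5.33, so the order of Krt16 depends on depth.

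Cstdc5, a gene of the stefin family of cysteine protease inhibitors, was at 19.96, 692, 631, 309.7, 60.7 and 308 CPM, high at 4 h and 16 h and above 0 h in every later library. Stfa3, of the same family, was at 18.6, 28.3, 62.6, 472, 76.8 and 134 CPM with its highest level at 2 d. Stefin genes are close copies of each other, so how reads were divided among them is uncertain. Areg, which encodes the EGF receptor ligand amphiregulin, was at 19.2, 564, 165, 236, 38.9 and 37.01 CPM. It was high at 4 h, 16 h and 2 d and lower, though above 0 h, at 4 d and 6 d. Amphiregulin is also made by T cells, whose gate held 604, 713, 766, 684, 199 and 681 CPM, and an average IFE basal cell held 5.71, 2.099 and 2.28 UMIs at 4 h, 16 h and 2 d against 2.13, 2.29 and 2.18 in a T cell gate barcode. Per barcode it was thus above the gate at 4 h and near it at 16 h and 2 d. A gate whose own cells make Areg does not give its level of free RNA. The bulge gate held 13.2, 6.68 and 18.7 CPM of Areg at 4 h, 16 h and 2 d. Among cells that Thbs2 and Smoc2 alone admit, Sh2d5, Krt6a, Cstdc5 and Areg were at 106, 716, 635 and 519.8 CPM at 4 h, and without the cells marked as doublets at 118, 792, 697 and 584 CPM.

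Among genes with at least 50 CPM, the largest decreases at 4 h were in Fbxo32, Trp53inp1, Irf1 and Sostdc1. Fbxo32, which encodes the ubiquitin ligase atrogin-1, was at 146, 1.66, 61.4, 71.4, 81.98 and 69.02 CPM, lowest at 4 h and still under its 0 h level at 6 d. The p53-induced nuclear protein gene Trp53inp1 was at 63.8, 0.950, 31.6, 48.3, 35.04 and 32.5 CPM, with 24 UMIs in all 2491 cells at 4 h. Irf1, an interferon-induced transcription factor gene, was at 323, 7.64, 32.1, 83.1, 82.4 and 227 CPM, and in the T cell gate it was also lowest at 4 h (158, 22.6, 28.8, 42.8, 46.6 and 64.5 CPM). Sostdc1, which encodes a secreted BMP and Wnt antagonist, was at 86.99, 2.97, 68.5, 84.6, 96.8 and 113 CPM. The basal keratin gene Krt15 was at 6745, 680.1, 3031, 2214, 4639 and 3654 CPM, 9.92-fold lower at 4 h than at 0 h and below 0 h in all later libraries. Its T cell gate level moved alongside (1146, 106, 352, 501, 849 and 594 CPM).

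**Figure D2:**
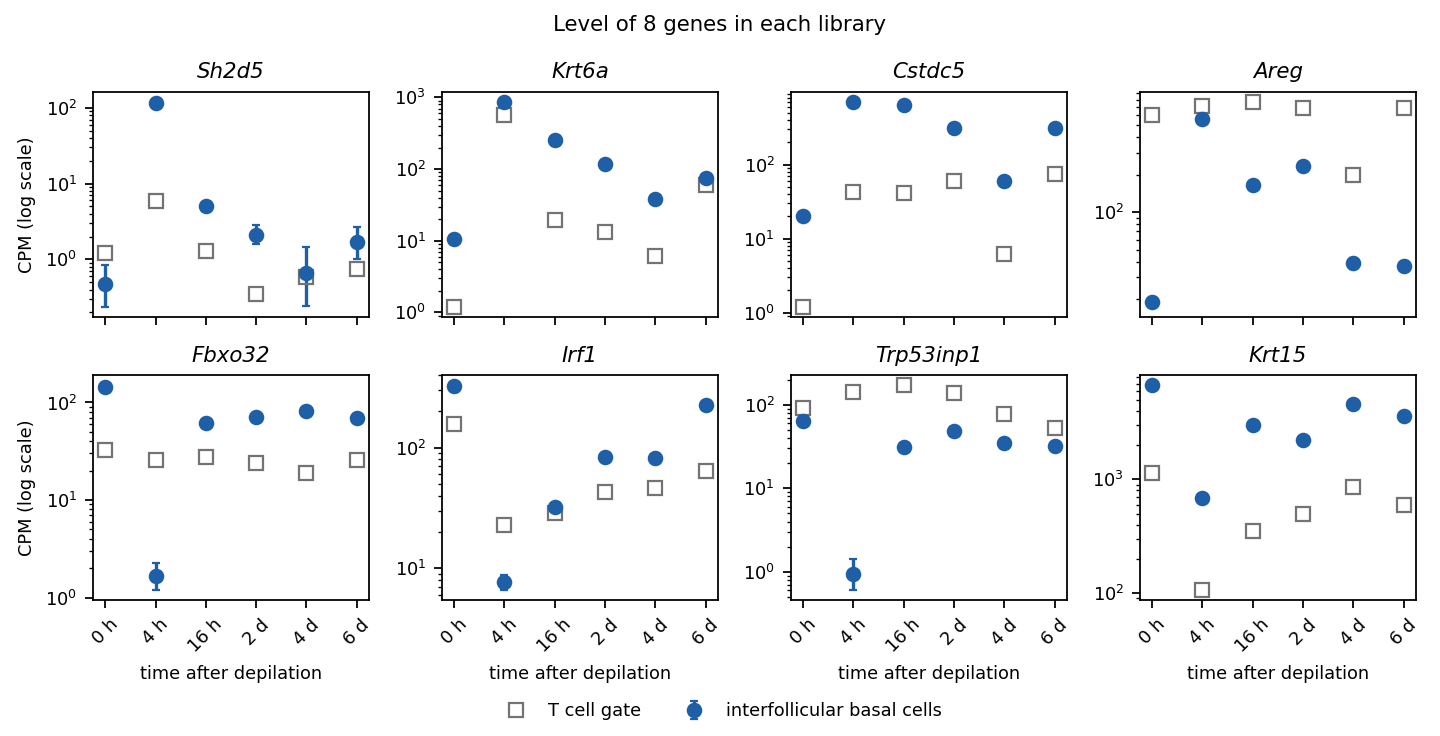
CPM (log scale) of 8 genes in each of the 6 libraries. Filled points are the summed IFE basal cells with exact Poisson 95% intervals, and open squares are the T cell gate. Sh2d5 and Krt6a have their highest and Fbxo32, Irf1, Trp53inp1 and Krt15 their lowest level in the 4 h library.

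Gene lists are described by how many of their measured members were at least 2-fold from 0 h, which at 4 h is read against 22.7% higher and 15.0% lower of all genes. A gene needed 20 CPM in either of the 2 libraries compared, so a low gene could enter through the library where it was high. Lists for which this mattered are therefore given over the genes with a mean of at least 20 CPM in the 6 libraries, of which 20.05% were higher and 14.4% lower at 4 h. Of 21 such ribosome biogenesis genes (22 in the list), which serve the making of ribosomal RNA and its assembly into ribosomes, 19 were at least 2-fold higher at 4 h and 0 lower, with a median log2 fold change of 2.11 against 0.20 for all genes of this mean. Their summed level was 3218, 9762, 3715, 2931, 2939 and 3172 CPM, high at 4 h alone, and it was 2829.97, 2876, 2395, 2456, 3087 and 2752 CPM in the T cell gate. Examples are Ncl, which encodes nucleolin (830.1, 2544, 719, 629, 474 and 633 CPM), and Polr1b, a subunit gene of RNA polymerase I whose mean was under 20 CPM (3.85, 42.5, 10.7, 5.87, 7.56 and 6.14 CPM). Nhp2, which encodes a protein of box H/ACA ribonucleoproteins, was at 106, 503, 199, 138, 134 and 152 CPM. In the bulge gate the summed level of this list went from 2583 CPM at 0 h to 6938 CPM at 4 h. In the upper follicle gate it went from 4211 to 9333 CPM, so the higher level at 4 h was not particular to IFE basal cells.

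Of 21 actin and cell migration genes, 10 were at least 2-fold higher at 4 h and 0 lower (median log2 fold change 0.94). The summed level of the list went from 11475 CPM at 0 h to 20327 CPM at 4 h. From 0 h to 4 h it also went from 11051 to 17752 CPM in the bulge gate. In the upper follicle gate it went from 9367 to 18448 CPM. Tagln2, which encodes transgelin-2, was at 417, 1185, 757, 725, 646 and 559.9 CPM, and Pfn1, which encodes the actin monomer-binding protein profilin-1, at 386, 1481, 1017, 761, 887 and 738 CPM. Tpm2, a tropomyosin gene, was at 54.04, 241, 303, 156, 212 and 159.9 CPM and stayed above 0 h. Cd44, which encodes the hyaluronan receptor, was at 316, 804, 231, 339, 188 and 318 CPM, with 4 h the only library at least 2-fold above 0 h.

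Of 19 adhesion and basal layer genes, 8 were at least 2-fold higher and 2 at least 2-fold lower at 4 h (median 0.79), and at 4 d and 6 d none was. The integrin α6 gene Itga6 was at 462, 1279, 615, 566, 451 and 453 CPM and its partner gene Itgb4 at 175, 478, 268, 158, 222 and 190.4 CPM. Itgb1, the gene of the integrin β1 chain, was at 221, 855, 223, 227, 201 and 246 CPM. For these 3 genes the 4 h library was the only one at least 2-fold above 0 h. The 2 lower genes were Krt15 and Col7a1, the anchoring fibril collagen gene, at 76.8, 37.8, 83.00, 104, 104 and 106 CPM.

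Immediate-early genes went the other way. Of 23, 11 were at least 2-fold lower at 4 h, and 8, 10, 4 and 5 in the libraries from 16 h to 6 d, where 5.24, 4.64, 4.07 and 1.32% of all genes were lower. Only Egr2 at 4 d was at least 2-fold higher. Their summed level was 35206, 19676, 20416, 18229.6, 29313 and 20800.1 CPM, highest at 0 h. Atf3 was at 4573, 1407, 2194, 2276, 3841 and 3272 CPM, Socs3 at 923, 179, 348, 399, 749.7 and 749 CPM and Jun at 4394, 2108, 1842, 1288, 2287 and 2201 CPM. These genes are also known to be induced while tissue is digested, and the share of that in the 0 h level was not tested. In the T cell gate the summed level was 20491, 18061, 17074, 12430.1, 13134 and 11388 CPM. From 0 h to 4 h it went from 46467 to 28186 CPM in the bulge gate. In the upper follicle gate it went from 37379 to 15224 CPM.

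Of 13 glucocorticoid-responsive and clock genes, 7 were at least 2-fold lower and 1 was higher at 4 h (median -1.22). Tsc22d3, the glucocorticoid-induced leucine zipper gene, was at 45.1, 4.198, 26.5, 26.1, 28.1 and 16.3 CPM and Zbtb16 at 58.1, 3.25, 12.6, 13.6, 19.2 and 14.7 CPM. Klf9 was at 373, 64.6, 144, 181, 187 and 278 CPM. The hour of day of each collection is not given in the sources used here, and Dbp, a clock output gene, was the 1 that was higher at 4 h (5.46, 21.5, 2.36, 16.6, 8.79 and 11.4 CPM).

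**Figure D3:**
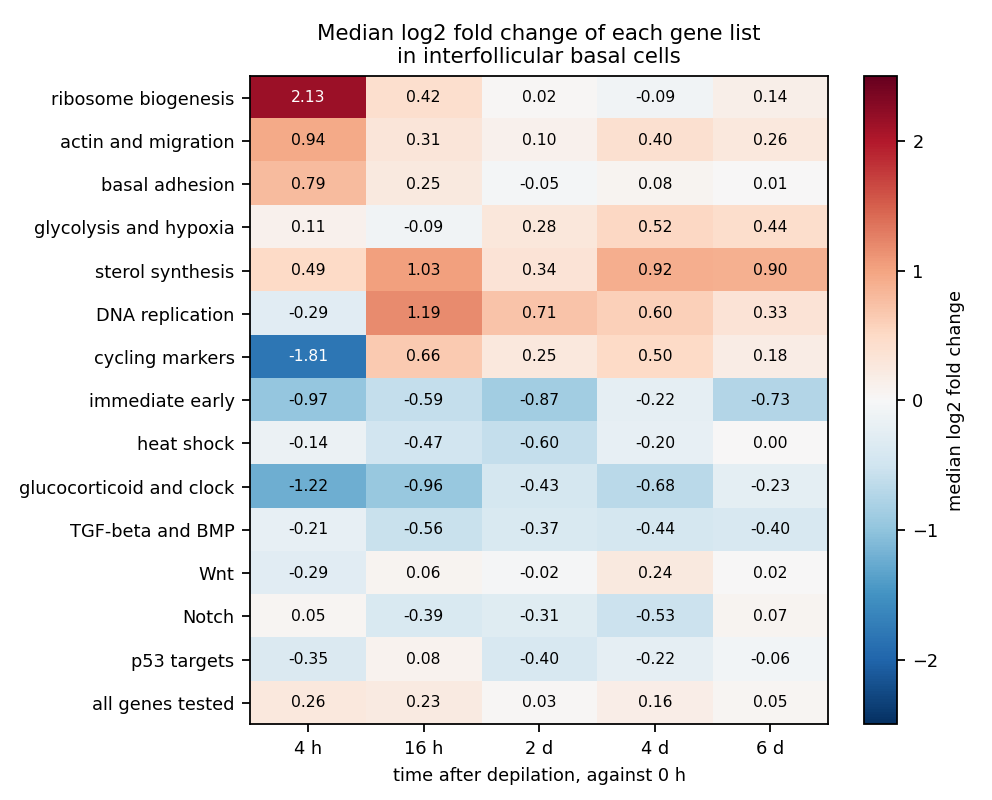
Median log2 fold change against 0 h of each gene list in IFE basal cells in the 5 later libraries (columns), over its genes of at least 20 CPM in either library, with all such genes in the last row. Red is higher and blue lower than 0 h. Ribosome biogenesis reads 2.13 and cycling markers -1.81 at 4 h, where all genes read 0.26, and DNA replication reads 1.19 at 16 h.

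The summed transcripts of cycling markers were lowest at 4 h and above their 0 h level from 16 h on. All 10 cycling markers, genes of the G2 and M phases such as Mki67 and Top2a, were at least 2-fold lower at 4 h (median -1.81). Their summed level was 1383, 433, 2151, 1594, 1877 and 1566 CPM. Mki67 was at 119.6, 23.2, 187, 116, 146 and 128 CPM, Top2a at 145, 40.7, 250.4, 177, 165 and 131 CPM and Nusap1, a spindle protein gene, at 43.4, 5.78, 76.9, 56.8, 78.4 and 48.3 CPM. Each of the 3 was lowest at 4 h.

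Cells with at least 2 UMIs of these markers after thinning to 2000 UMIs made up 19.9, 9.56, 33.6, 29.8, 26.3 and 25.5% of the IFE basal cells. With exact binomial 95% intervals, which cover counting error and no spread between mice or libraries, the share was 19.9% (18.3 to 21.5%) at 0 h, 9.56% (8.43 to 10.8%) at 4 h and 33.6% (31.9 to 35.3%) at 16 h. Unthinned, the shares were 69.9, 40.5, 79.8, 69.8, 59.5 and 68.9%, in which the libraries of 2 d, 4 d and 6 d no longer lie above 0 h, so their order against 0 h depends on depth. Among cells that Thbs2 and Smoc2 alone admit, the thinned shares were 19.9, 11.7, 33.04, 29.5, 24.8 and 25.4%, and without the cells marked as doublets 19.7, 10.00, 31.98, 28.5, 24.7 and 23.95%. The T cell gate, whose cells also divide, held 25.4, 37.5, 24.2, 38.8, 44.1 and 55.2%. In the upper follicle gate the shares were 22.1, 14.7, 33.1, 30.6, 24.96 and 27.3% and in the bulge gate 13.3, 2.29, 11.3, 20.5, 26.6 and 21.7%, where 4 h was the lowest library too.

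DNA replication genes peaked at 16 h. Of 19 with a mean of at least 20 CPM (25 in the list), 15 were at least 2-fold above 0 h at 16 h and none below, against 5.26% higher of all genes of this mean. Their median was 1.17 against 0.23. At 2 d 4 were higher and none at 4 d or 6 d. Mcm5, a subunit gene of the replicative helicase, was at 13.9, 12.2, 53.01, 23.6, 22.6 and 17.7 CPM, and Mcm6 at 16.2, 24.1, 66.7, 37.2, 32.4 and 23.04 CPM. Pcna, the sliding clamp gene, was at 83.8, 117, 189, 120.5, 111 and 96.1 CPM. At 4 h 4 of the 19 (Rrm1, Gins2, Lig1 and Tk1) were at least 2-fold lower, against 14.4% of all genes of this mean, while Mcm6 was higher than at 0 h by 0.57 on the log2 scale. Histone gene Hist1h2ap (159, 58.9, 429.7, 7.0, 53.8 and 322 CPM) was not counted here, since its T cell gate level also varied between libraries (27.6, 8.38, 73.3, 1.76, 122 and 527 CPM). Both were lowest at 2 d, but at 4 d the gate was above its 0 h level and IFE basal cells were below theirs.

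Sterol synthesis genes were counted against 0 h. At 4 h 4 of 14 were at least 2-fold higher, near the 22.7% of all genes. Those past this limit numbered 9 of 17 at 16 h, 5 of 15 at 2 d, 8 of 17 in the 4 d library and 6 of 16 in that of 6 d, against 5.75, 2.06, 2.45 and 1.37% of all genes. None was at least 2-fold lower at any time point. Msmo1 was at 23.8, 68.3, 85.3, 69.6, 97.7 and 88.00 CPM and Idi1 at 21.9, 52.00, 78.8, 44.5, 80.2 and 67.5 CPM. The T cell gate was also lowest at 0 h (977, 1221, 1542, 1323, 1517 and 1381 CPM against 852, 856, 1346, 1080.5, 1321 and 1227 CPM in IFE basal cells).

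The EGF receptor ligands differed in timing. Epgn (chr5:91027517-91035212), which encodes epigen, was at 266, 298, 327, 513, 154 and 124 CPM, highest at 2 d and lowest at 4 d and 6 d. Tgfa was at 28.7, 96.1, 18.8, 21.9, 5.23 and 18.8 CPM and the neuregulin gene Nrg1 at 76.5, 146, 36.8, 104, 16.9 and 60.3 CPM, both highest at 4 h and lowest at 4 d. Hbegf, the heparin-binding EGF-like factor gene, was at 439.8, 367, 295, 447, 541 and 307 CPM, within 2-fold of 0 h in every library. Receptor gene Egfr was at 51.4, 84.6, 45.5, 42.1, 40.9 and 48.4 CPM, Erbb2 at 20.8, 16.7, 29.7, 21.5, 26.4 and 28.7 CPM and Erbb3 at 48.6, 27.05, 47.01, 36.6, 52.5 and 60.5 CPM, and none of them was 2-fold from 0 h. Of the 9 measured genes of this family, 2 were at least 2-fold higher at 4 h, a share near the 22.7% of all genes, and none was lower.

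Among Wnt genes, the ligand gene Wnt4 was at 260.1, 677, 618, 438, 534 and 456 CPM, at least 2-fold above 0 h at 4 h, 16 h and 4 d. Wnt3 was at 117, 98.8, 105, 123, 119.9 and 118 CPM and Wnt10a at 144, 252, 201, 150.3, 238 and 174 CPM, while Wnt6 was at 34.6, 2.65, 21.1, 15.3, 31.4 and 25.6 CPM and lowest at 4 h. The Wnt target gene Axin2 was at 24.7, 11.3, 14.97, 10.96, 18.1 and 18.9 CPM, and Lgr6, which encodes an R-spondin receptor, at 30.7, 3.13, 32.7, 30.8, 45.5 and 40.4 CPM with its lowest level at 4 h. In all 1 of 14 genes was at least 2-fold higher and 6 lower at 4 h.

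Several BMP and TGFβ pathway genes were below their 0 h level. The BMP target gene Id3 was at 1003, 91.2, 342, 563, 412 and 686 CPM, Id1 at 526, 161, 166, 360.5, 619.8 and 414 CPM and Id2 at 67.2, 7.41, 10.8, 24.04, 29.4 and 33.8 CPM, lowest at 4 h in each case. The ligand gene Bmp2 was at 142, 15.96, 30.9, 94.1, 43.2 and 86.2 CPM and Bmp4 at 60.96, 17.7, 42.9, 57.7, 70.97 and 44.5 CPM, again lowest at 4 h. Of 14 genes 2 were at least 2-fold higher and 6 lower at 4 h, and 6 were lower at 16 h, against 5.24% of all genes. Notch pathway genes stayed within 2-fold of 0 h in all libraries (7 measured), except Hes1 at 4 d, which was at 841, 453, 573, 666, 183 and 509 CPM.

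Cytokine and alarmin genes were mostly lower at 4 h than at 0 h. At 4 h 6 of 10 were at least 2-fold lower and 1 was higher, namely Il24, a cytokine gene of the IL-10 family (7.53, 62.97, 4.04, 6.39, 0.334 and 8.12 CPM). The neutrophil chemokine gene Cxcl1 was at 173, 36.7, 33.2, 173, 8.79 and 53.8 CPM and Ccl20, which encodes the CCR6 ligand, at 21.95, 2.81, 26.8, 83.4, 7.45 and 21.6 CPM with its highest level at 2 d. The decoy receptor gene Il1r2 was at 143, 21.8, 137, 93.5, 133 and 126 CPM, and Tslp, which encodes thymic stromal lymphopoietin, at 24.8, 3.13, 10.1, 14.4, 12.01 and 30.6 CPM. Il33, which encodes an alarmin stored in the nucleus, was at 79.7, 128, 162, 101, 111 and 128 CPM. Of the interferon-stimulated genes, Ifi27l2a was highest at 6 d (26.2, 21.8, 28.6, 57.5, 35.5 and 211 CPM).

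Of 15 heat shock genes 3 were at least 2-fold higher, a share near that of all genes, and 5 lower at 4 h, and 6 were lower at 2 d, against 4.64% of all genes. Hspd1, the mitochondrial chaperonin gene, was at 119, 624, 256, 173, 153 and 151 CPM, while Hspa1a, an inducible HSP70 gene, was at 188, 34.2, 57.1, 47.6, 204 and 285 CPM. Of 13 p53 target genes 3 were at least 2-fold higher at 4 h, a share near that of all genes, among them Phlda3 (85.99, 488, 177, 117, 126 and 128 CPM), and 5 were lower, among them Cdkn1a, the p21 gene (571, 244, 342, 261, 431 and 447 CPM). In the BCL-2 family, with 6 genes measured at 4 h, the pro-apoptotic genes Bax (62.5, 131, 83.6, 69.96, 88.9 and 80.9 CPM) and Bok (95.3, 200.1, 159, 116, 149.95 and 101 CPM) were at least 2-fold higher at 4 h. Bbc3, which encodes the BH3-only protein PUMA, was lower (36.7, 6.297, 9.22, 12.7, 15.2 and 20.5 CPM). With so few genes measured, 2 higher and 1 lower are not set apart from the shares of all genes. Over genes with a mean of at least 20 CPM the 4 h counts were 3 higher and 3 lower of 10 p53 target genes, 2 and 0 of 4 BCL-2 family genes, 0 and 4 of 7 cytokine and alarmin genes and 0 and 7 of 11 glucocorticoid-responsive and clock genes. For sterol synthesis they were 4, 8, 5, 7 and 6 higher of 16 from 4 h to 6 d.

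Later time points had fewer genes past 2-fold. Gadd45b, a growth arrest and DNA damage gene, was at 627, 51.5, 38.5, 165, 138 and 811 CPM, below 0 h from 4 h to 4 d and above it at 6 d. Pde4b, a cAMP phosphodiesterase gene, was at 206, 14.5, 23.3, 63.3, 19.8 and 162 CPM, under its 0 h level throughout. Postn, which encodes the matrix protein periostin, was at 27.9, 21.4, 100.2, 365, 81.98 and 49.5 CPM, with 73.8% of the cells holding a UMI at 2 d and the 10 highest cells holding 3.66% of its UMIs. For Krt6a, Areg, Cstdc5 and Sh2d5 at 4 h the 10 highest cells held 4.85, 5.51, 3.53 and 2.34% of the UMIs, and for Stfa3 at 2 d 7.55%.

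Genes of the upper follicle behaved otherwise. Cst6 (chr19:5344705-5349574), which encodes the protease inhibitor cystatin M/E, was at 36.5, 49.1, 286, 774, 1461 and 1159.8 CPM, but the 10 highest cells held 9.86, 46.7, 69.9, 55.6, 77.8 and 79.96% of its UMIs. Without those 10 cells its level was 32.9, 26.2, 86.1, 344, 325 and 232 CPM, and without the cells marked as doublets 34.1, 37.03, 199, 329, 180.1 and 964 CPM. Krt79, a keratin of the upper follicle duct, was at 10.05, 13.98, 91.9, 233, 363 and 199.5 CPM with 62.9, 79.6, 56.1, 37.8, 38.6 and 45.1% of its UMIs in 10 cells. The β-defensin gene Defb6 was at 7.06, 14.97, 59.03, 223, 186 and 181 CPM, and the 10 highest cells held 38.8% of its UMIs at 2 d. The T cell gate held Defb6 at 145, 111, 313, 691, 335 and 552 CPM, above IFE basal cells in every library. Krt79 was at 3.72, 2.85, 40.4, 145, 223 and 109 CPM without its 10 highest cells and at 4.16, 10.4, 48.8, 118, 99.96 and 81.5 CPM without the cells marked as doublets. Its T cell gate level was 252, 61.2, 342, 519, 541 and 539 CPM, above IFE basal cells in every library. At 0 h and 4 h the bulge gate, given below, held far less Krt79 than the T cell gate. Whether the T cell gate gives the level of free RNA alone for Krt79 was not tested. The part of free RNA in the levels of Krt79 and Defb6 was not tested. In the upper follicle gate Cst6 was at 86.3, 680.1, 2035, 11718, 11035 and 3558 CPM. In the T cell gate it was at 2523, 1137, 779, 3180.2, 2519.8 and 3279 CPM, again above IFE basal cells in every library. For Cst6, Krt79 and Defb6 these orders are in CPM. A T cell gate barcode held fewer UMIs than an IFE basal cell, so the orders depend on depth and need not hold per barcode.

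Transcripts of some other cell types lay in few cells. At 4 d Col1a1 and Col1a2, collagen I genes of fibroblasts, were at 58.3 and 52.4 CPM against 0.216 and 0.0433 CPM at 0 h, and 9 barcodes held all 524 UMIs of Col1a1. The melanocyte gene Dct was at 46.8 CPM at 4 d with 94.3% of its UMIs in 10 barcodes, and at 6.74 CPM without the cells marked as doublets. The cornified layer genes Lor and Lce1m were at 143, 169, 138, 8.0, 23.9 and 177 and 55.1, 116, 121, 1.83, 2.11 and 24.5 CPM, and 10 barcodes held 91.3 and 96.7% of their UMIs at 4 h but 3.64 and 8.96% at 0 h. In the T cell gate Lor was at 251, 428, 651, 28.1, 19.9 and 3165 CPM. For none of these genes is the change over time described as one of IFE basal cells.

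**Figure D4:**
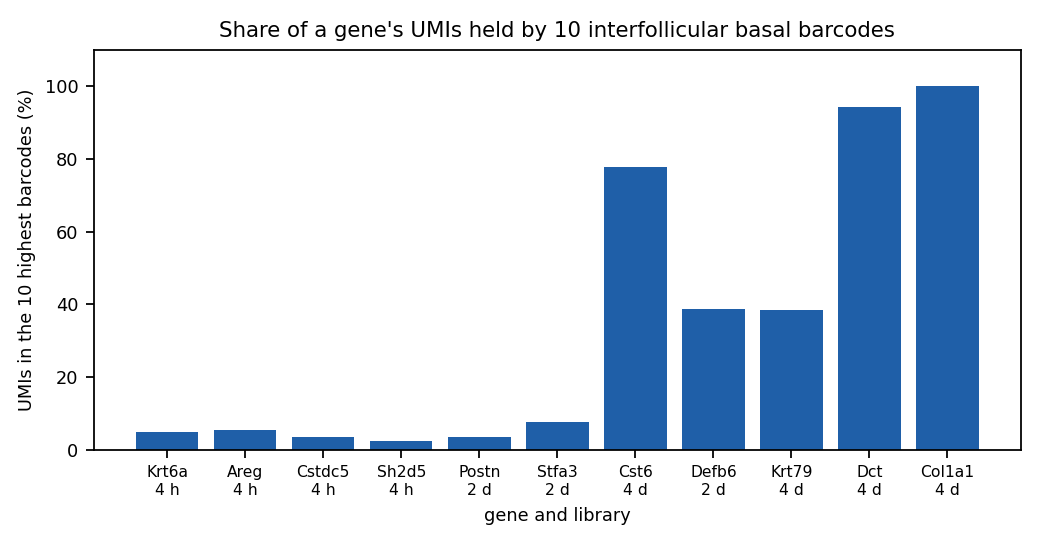
Share of a gene's UMIs that the 10 IFE basal cells with most UMIs of it hold (bars, percent, axis from 0), at the time point named under each gene. Krt6a, Areg, Cstdc5 and Sh2d5 at 4 h lie between 2.34 and 5.51%, and Cst6, Dct and Col1a1 at 4 d between 77.8 and 100%.

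Marker lists of other cell types were summed over the IFE basal cells. T cell markers came to 102, 167, 159.7, 243, 215 and 168 CPM in IFE basal cells and to 14879.8, 15242, 19503, 14940.5, 15154 and 9632 CPM in the T cell gate. Langerhans cell markers came to 428, 1157, 480.2, 469, 355 and 474 CPM, most of it Epcam, an epithelial adhesion gene that HF cells also express. Melanocyte markers came to 7.49, 4.08, 5.49, 9.52, 122 and 11.6 CPM, endothelial and muscle markers to 3.29, 0.990, 12.9, 4.65, 3.003 and 2.27 CPM and red cell markers to 1.602, 0.475, 0.203, 1.52, 1.45 and 0.283 CPM. Fibroblast markers came to 206, 148, 215, 216, 464 and 321 CPM, most of it Sparc, which IFE basal cells held at 206, 147, 215, 215, 300.4 and 321 CPM against 3.596, 1.68, 2.62, 12.3, 35.8 and 25.5 CPM in the T cell gate. Spinous layer markers, with Krt1 and Krt10 among them, came to 2153, 3392, 3659, 3999.8, 2226 and 2682 CPM, sebaceous markers to 79.6, 139, 208, 174, 202 and 181 CPM and inner root sheath markers to 333, 159, 209.8, 209, 208 and 298 CPM. Their part in the differences between libraries was not tested.

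IFE basal cells were then compared with the 2 follicle gates in the same libraries, with the library as a block. The gates were separated by genes measured in the same cells, so the calls are a description and nothing is read from their number. Of 12454 genes 2102 (16.9%) were called higher and 1930 (15.5%) lower than in the bulge gate by edgeR at an FDR of 0.05, and of 12539 genes 2068 (16.5%) were called higher and 1567 (12.5%) lower than in the upper follicle gate. The bulge gate held 60, 132, 284, 122, 506 and 453 cells, and its makeup changed, with Krt79 at 2.53, 2.63, 132, 304, 2299.7 and 1461 CPM. The upper follicle gate held 285, 178, 803, 672, 1215 and 793 cells. Its upper follicle markers summed to 14637.5, 18359, 14827, 30964, 42965 and 27095 CPM. This gate also admits cells on Sostdc1, which IFE basal cells held too, so its makeup may differ between libraries. The genes named here had the same sign in all 6 libraries and at least 50 CPM on average in the higher group.

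Against the bulge gate, Epgn was higher by 4.41 ± 0.21 (log2 fold change ± SE, 6 libraries per group), with 5.06, 14.5, 12.9, 31.9, 7.903 and 13.8 CPM in the bulge gate. Wnt3 was higher by 4.09 ± 0.26 and Il33 by 4.24 ± 0.25. Col23a1, a transmembrane collagen gene, was higher by 4.53 ± 0.18, Serpinb7, a serine protease inhibitor gene, by 4.27 ± 0.18, the transcription factor gene Sox6 by 4.30 ± 0.41, the semaphorin gene Sema3d by 4.10 ± 0.24 and Ly6a by 4.08 ± 0.36. Lower in IFE basal cells were Cd34 (-9.06 ± 0.70), the peptide hormone gene Cck (-8.44 ± 0.56), Il31ra (-8.28 ± 0.41), Shisa2 (-7.61 ± 0.37), Ccn2 (-7.35 ± 0.66), the T-box factor gene Tbx1 (-7.22 ± 0.48), the BMP antagonist gene Grem1 (-6.83 ± 0.68) and Pdzrn3 (-5.91 ± 0.39). Bulge gate levels were 78.4, 51.3, 83.3, 196, 178 and 237 CPM for Shisa2 and 357, 126, 206, 93.6, 52.6 and 65.98 CPM for Grem1, against 0.173, 0.158, 0.229, 0.348, 2.22 and 1.51 and 0.996, 1.03, 0.483, 0.435, 2.11 and 1.89 CPM in IFE basal cells. Cck was at 306, 107, 26.3, 14.3, 4.26 and 2.84 CPM in the bulge gate, lower in each library than in the one before, and its difference was -7.36 without 0 h. Without the cells marked as doublets the difference was 5.14 for Col23a1, 5.34 for Sox6, 5.51 for Serpinb7, 4.92 for Il33, 5.49 for Sema3d, 5.23 for Wnt3 and 5.36 for Ly6a, and -9.49 for Cck, -8.49 for Shisa2, -7.56 for Grem1 and -7.09 for Pdzrn3. After thinning before the rule it was 3.54 for Epgn, and -7.83 for Cd34, -6.66 for Il31ra, -5.98 for Shisa2, -6.38 for Tbx1 and -6.02 for Grem1. The calls were the same in both cases.

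Against the upper follicle gate, Sox6 (4.03 ± 0.16) and Serpinb7 (4.01 ± 0.19) were again higher. Igfbp3, which encodes an insulin-like growth factor binding protein, was higher by 4.44 ± 0.26, with 243, 225, 259, 300.1, 480.0 and 376 CPM in IFE basal cells and 8.09, 10.5, 5.25, 24.9, 26.1 and 26.1 CPM in the gate. Igfbp7 (4.00 ± 0.16), Ndufa4l2 (3.57 ± 0.20), Sparc (3.39 ± 0.16), Il1r2 (3.09 ± 0.44) and Wnt7b (3.09 ± 0.14) were the others. Lower genes included Defb6 (-3.90 ± 0.22), the transcription factor gene Foxc1 (-3.39 ± 0.21), Nebl (-3.37 ± 0.18), the lipoxygenase gene Alox12e (-3.32 ± 0.15), Aadac (-3.27 ± 0.20) and the aldehyde dehydrogenase gene Aldh3a1 (-3.25 ± 0.29). The simple epithelial keratin gene Krt18 (-3.70 ± 0.59) had most of its gate level in the 4 h library, with 2.695, 321, 9.03, 0.853, 0.872 and 4.29 CPM in the gate. Without 4 h its difference was -2.47, and without the library block it was not called (edgeR FDR 0.0931). Without the cells marked as doublets the difference was 5.08 for Igfbp3 and 4.75 for Igfbp7, and -5.03 for Defb6, -4.35 for Foxc1, -4.42 for Nebl, -4.36 for Alox12e and -4.20 for Aadac. After thinning before the rule it was 3.43 for Igfbp3, 3.27 for Serpinb7 and 2.91 for Igfbp7, and -5.30 for Defb6, -4.17 for Foxc1, -4.31 for Nebl, -4.85 for Alox12e and -4.45 for Aadac. The calls of these genes were the same in both cases.

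**Figure D5:**
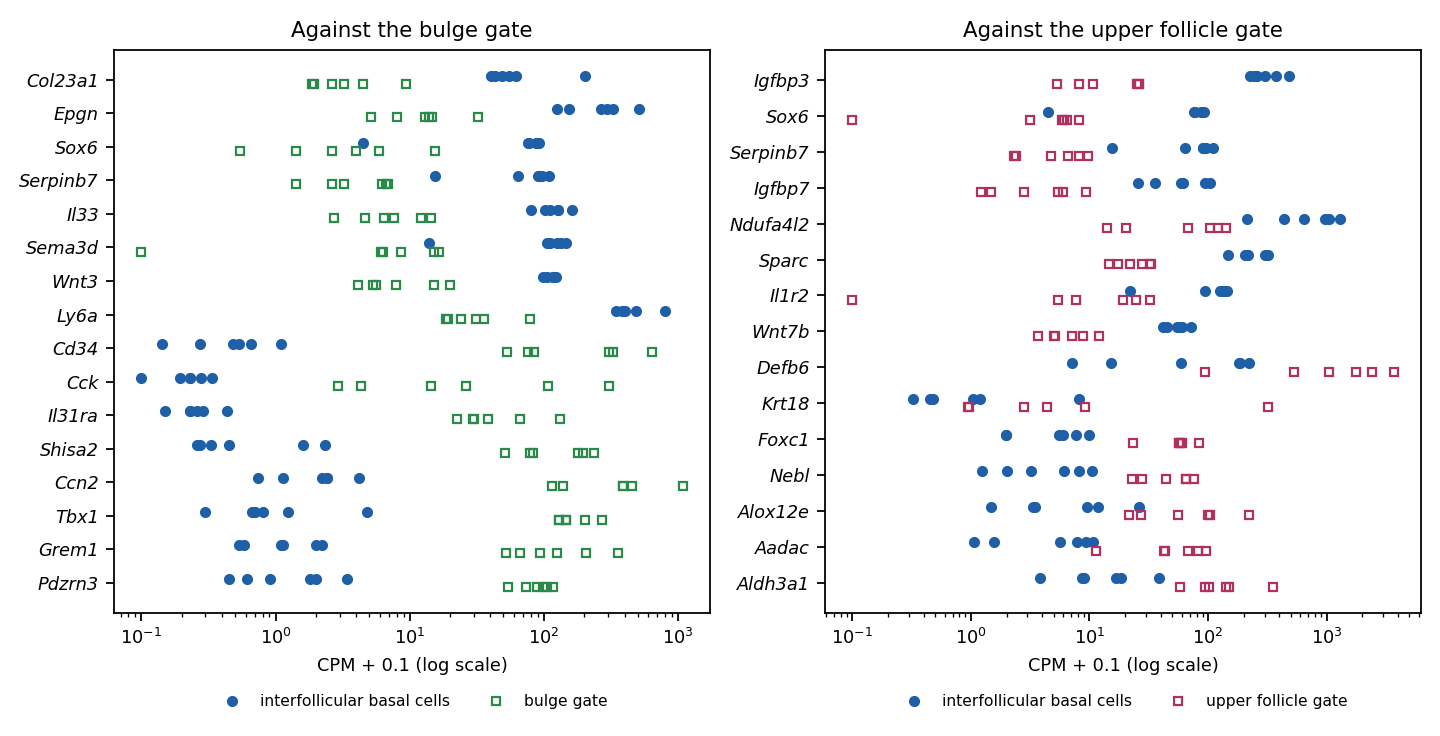
CPM + 0.1 (log scale) of the genes named as most above and most below the bulge gate (left) and the upper follicle gate (right). Filled points are IFE basal cells and open squares the gate, with 1 point per library. For each gene the value in IFE basal cells lies on the same side of the gate's value in all 6 libraries.

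Counts of lists are read against 16.9% higher and 15.5% lower of all genes for the bulge gate and 16.5 and 12.5% for the upper follicle gate. Of the Wnt list 11 of 27 genes were called higher and 10 lower than in the bulge gate. The ligand genes Wnt3, Wnt3a, Wnt4, Wnt5a, Wnt6, Wnt7b and Wnt10a were among the higher, by 2.49 ± 0.23 for Wnt4 and 2.01 ± 0.21 for Wnt10a. The receptor gene Fzd7 (-3.57 ± 0.20), the effector gene Tcf7l1 (-5.04 ± 0.28), and the inhibitor genes Wif1 (-5.09 ± 0.55), Dkk3 (-4.28 ± 0.65) and Sfrp1 (-2.61 ± 0.35) were among the lower. Among BMP and TGFβ genes 3 of 23 were called higher, no more than the 16.9% of all genes, and 11 lower, against 15.5% of all genes. The difference of Bmp4 was 4.08 ± 0.27. Of 12 genes of the Notch list 2 were higher, a share near the 16.9% of all genes, and 4 lower. Of its ligand genes Dll1 was at 2.60 ± 0.36, Jag2 at 0.94 ± 0.15 and Jag1 at -1.12 ± 0.13.

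Basal adhesion genes, beside these shares, were higher in 8 of 19 against the bulge gate and in 17 of 19 against the upper follicle gate, with none lower in either. Among cytokine and alarmin genes 14 of 21 were higher and 1 lower than in the bulge gate, and 9 higher and 3 lower than in the upper follicle gate, the latter near the 12.5% of all genes. Glycolysis and hypoxia genes were higher in 16 and lower in 1 of 22 against either gate, among them the lactate exporter gene Slc16a3 (3.79 ± 0.29 and 3.42 ± 0.27). Of the EGF receptor list 6 of 11 were higher and 1, Egfr, lower than in the bulge gate. Of the 10 cycling markers 9 were higher than in the bulge gate and 4 than in the upper follicle gate. The gates' median cells held 6064, 5464, 7184, 6104, 5523 and 5282 and 7349, 9278, 10678, 7389.5, 5980 and 7105 UMIs, fewer than IFE basal cells in all 6 libraries, and the part of depth in these calls was not tested beyond thinning the rule to 2000 UMIs.

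A test of whether the curve over time differed between IFE basal cells and the bulge gate called 123 of 12454 genes (0.988%) in edgeR at an FDR of 0.05, with 2 residual degrees of freedom. These calls too compare groups that were separated by their own counts, and are a description. Their number went to 459 without 0 h, 587 without 4 h and 20 with a linear trend, under which S100a4 and Atf3 lost their calls. S100a4, which encodes a calcium-binding protein of motile cells, was at 31.6, 45.9, 169, 139, 164 and 75.9 CPM in IFE basal cells and at 2624, 2606, 2525, 284, 274 and 140.5 CPM in the bulge gate. It was high at 0 h, 4 h and 16 h in the bulge gate and low from 2 d, whereas IFE basal cells were highest at 16 h, 4 d and 2 d. Atf3 was at 6499.7, 2186, 2246, 1141, 1225 and 2155 CPM in the bulge gate, where 2 d was lowest, while in IFE basal cells 4 h was. The bulge gate grew from 60 to 506 cells between 0 h and 4 d while its Cd34 level went from 640.1 to 53.2 CPM, so a change within its cells and a change in which cells enter it cannot be told apart.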

How the data were processed

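Cells from the back skin of 2 mice were pooled for each library and sequenced with the 10x Genomics Chromium 3′ kit. The authors deposited filtered matrices that hold raw UMI counts and no normalized values, made with Cell Ranger 6.1.2 on the mm10 (GRCm38) genome per the submitters' processing notes. Barcode limits and the selection are given above. Counts of the selected cells were summed per library and turned into CPM of all gene counts. Genes were tested in edgeR (version 4.0.16, R 4.3.3) by a robust quasi-likelihood fit (TMM factors, the default expression filter, Benjamini-Hochberg adjustment over all genes tested, FDR 0.05), on the 6 sums with a natural spline of hours (3 degrees of freedom) and on 12 sums with the library as a block. DESeq2 1.42.0 was an alternative. Differences from 0 h have no test, and genes at least 2-fold apart with at least 20 CPM in the higher library were counted, a sum under 3 UMIs being set to 3.

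Named genes were the 4 with the largest increase and the 4 with the largest decrease at each time point with at least 50 CPM, the 8 highest and 8 lowest called against each gate with at least 50 CPM and the same sign in 6 libraries, the 10 with the smallest p for the difference in time course, and members of 35 gene lists. Some of these genes are not reported here. Mitochondrial and ribosomal protein genes, genes of the selection and 38 symbols that occur more than once were left out. Rpl13a, Epcam, Ncl and other single list members were picked as examples after their values were seen. The members and lists were chosen with earlier results of these data known. Of the lists, Mx1 and Nhp2l1 did not match by symbol and Aldoa matched 2 genes. The T cell gate took passing barcodes with at least 2 UMIs of T cell genes and under 100 UMIs of Krt5 and Krt14 per 10000. Doublets were scored with Scrublet in scanpy 1.11.5, and the highest scores were marked at 0.8% per 1000 barcodes. Gene positions are those of RefSeq for GRCm38.p6. The tests were checked on simulated counts. The alternatives were other scaling, filters, limits of the selection, time scales, tools and each library left out. Those on the 2-fold counts, and the contrasts with the gates for cells admitted by Thbs2 and Smoc2 alone, were chosen after seeing the data.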

Additional observations from a re-analysis of the deposited data

Results flagged for a closer look

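The test of a difference between 2 groups in their course over time marked 123 genes, given here with their edgeR FDR where the gene was among the 10 with the smallest p or belonged to a gene list. The comparison was between IFE basal cells and the bulge gate, and the bulge gate's makeup changed with time, so these calls compare the summed groups and not the same cells followed over time. The calls with the smallest p included S100a4 (1.53e-07), Col1a1 (0.000273), Postn (0.000273), Atf3 (0.000416), Cdh13 (0.000416), Pinlyp (0.000445), Dcn (0.000832), Pla2g7 (0.00097) and Kcnk2 (0.00123). Postn was highest at 2 d in IFE basal cells (27.9, 21.4, 100.2, 365, 81.98 and 49.5 CPM) and highest at 0 h in the bulge gate (1019.6, 789.6, 721, 757, 329 and 346 CPM). Cdh13, a cadherin gene, varied between 80.9 to 164 CPM in IFE basal cells and was at 243, 146, 158, 72.7, 31.6 and 19.2 CPM in the bulge gate. Kcnk2, a potassium channel gene, was at 2.55, 3.29, 5.21, 7.35, 4.56 and 5.38 CPM in IFE basal cells and at 253, 218, 87.3, 68.3, 27.4 and 47.2 CPM in the bulge gate. Pinlyp was at 0.476, 1.505, 2.03, 3.78, 8.01 and 6.99 and 0, 7.896, 4.01, 6.61, 207 and 671 CPM, and Pla2g7 at 9.57, 12.5, 12.3, 7.74, 15.4 and 15.7 and 0, 2.63, 3.12, 16.5, 99.7 and 98.6 CPM. Without the 4 d library, whose Col1a1 UMIs lay in 9 barcodes, the edgeR FDR was 1.0 for Col1a1 and 0.103 for Dcn.

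Immediate-early genes were marked in edgeR for Klf2 (0.00164), Fosb (0.00251), Fos (0.00634), Socs3 (0.00618), Zfp36 (0.0163), Klf6 (0.0203) and Nr4a1 (0.0357), beside Atf3. Fos, for example, was at 6039, 4247, 3336, 3441, 4688 and 3577 CPM in IFE basal cells and 8572, 5259.7, 2844, 1838, 2964 and 2854 CPM in the bulge gate, where the 2 d library was lowest. Cell cycle genes were marked for Top2a (0.00164), Nusap1 (0.0122), Ccna2 (0.0122), Tpx2 (0.0341) and Prc1 (0.0371). Top2a was at 0, 1.32, 30.7, 139.9, 97.9 and 58.5 CPM in the bulge gate, with no UMI at 0 h, against 145, 40.7, 250.4, 177, 165 and 131 CPM in IFE basal cells. Growth factor, cytokine and matrix genes were marked for Hbegf (0.00179), Areg (0.0428), Il24 (0.0119), Cxcl14 (0.0123), Cxcl16 (0.0326) and Thbs1 (0.00528). Areg was at 2.53, 13.2, 6.68, 18.7, 6.99 and 8.51 CPM in the bulge gate.

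Keratinocyte differentiation and keratin genes were marked in edgeR for Klf4 (0.00181), Sfn (0.00982), Calml3 (0.00179), Krt6b (0.0138) and Krt17 (0.0249), and stress genes for Mt2 (0.00164), Ndrg1 (0.00219) and Hspb1 (0.0341). Krt17 was at 837, 2119, 1319, 3525, 7532 and 6374 CPM in the bulge gate. Transcription factor and signalling genes were marked for Hes1 (0.00258), Id1 (0.00346) and Lef1 (0.0428), the bulge marker for Sncg (0.00238), and the BCL-2 family gene for Bok (0.00422) and the T cell gene for Cd3g (0.0291). Cd3g was at 3.64, 8.04, 4.93, 31.3, 36.04 and 17.4 CPM in IFE basal cells, and its T cell gate level was 4514, 5333, 7782, 4346, 6224 and 3431 CPM. Lef1 was at most 1.78 CPM in any sum of IFE basal cells, and which of the 2 groups its call rests on was not tested.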

How the results depend on the processing

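The calls of the gene tests moved as follows. The time course of IFE basal cells, with 0 genes called at an FDR of 0.05 in edgeR, gave 0 to 47 when each library was left out, namely 47 without 0 h, 13 without 4 h, 6 without 2 d, 5 without 6 d and 0 without 16 h or 4 d, and 35 with the DESeq2 likelihood ratio test. It stayed at 0 under the other 10 alternatives. The 4032 genes called against the bulge gate and the 3635 called against the upper follicle gate went to 1861 and 914 without the library block and stayed within 1.5 times under all other alternatives, with 3003 to 4072 and 2669 to 4185 when a library was left out. The 123 genes whose course differed from the bulge gate went to 228 without a filter, 208 on the log2(hours + 1) scale, 77 on the rank of time points and 20 with a linear trend, and to between 170 and 587 when a library was left out (459 without 0 h, 587 without 4 h, 264 without 16 h, 265 without 2 d and 232 without 6 d). Leaving out a library leaves 1 residual degree of freedom. Among the 10 genes with the smallest p there, S100a4, Col1a1, Postn, Atf3, Dcn, Pla2g7 and Kcnk2 lost the call with a linear trend and Pinlyp after thinning before the rule, and the cause was not tested.

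The share of IFE basal cells was 43.3, 43.5, 44.2, 35.2, 15.7 and 19.5% with at least 1 UMI of the 3 marker genes, 25.3, 24.7, 27.9, 16.6, 5.62 and 7.65% with at least 3, and 8.26, 11.1, 8.16, 5.67, 2.73 and 2.81% of the barcodes with at least 2000 UMIs after thinning to that depth. At 2 d it was 26.5% with Krt1 and Krt10 under 200 per 10000 UMIs. It was lowest at 4 d under each of these limits. The cycling share was 47.6, 28.6, 57.9, 54.7, 50.8 and 51.5% with at least 1 UMI of the cycling markers, 12.3, 5.504, 25.3, 20.5, 18.2 and 16.2% with at least 3, 29.6, 13.5, 41.7, 38.6, 35.7 and 34.4% after thinning to 3000 UMIs and 69.9, 40.5, 79.8, 69.8, 59.5 and 68.9% without thinning, lowest at 4 h and highest at 16 h each time.

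Genes at least 2-fold from 0 h numbered 383 higher at 4 d and 165 higher at 6 d when all cells of the basal keratin gate were summed, and 81 higher at 4 d after TMM scaling, whose factors were -0.13, 0.08, -0.06, 0.17 and 0.05 on the log2 scale at 4 h to 6 d. With at least 50 CPM in place of 20, they numbered 425 lower at 4 h, 183 higher and 170 lower at 16 h, 61 and 131 at 2 d, 62 and 127 at 4 d, and 38 and 36 at 6 d, since fewer genes are then tested, and 43 lower at 6 d with a mean of 20 CPM over all libraries. Among named genes the log2 fold change of Id3 against the bulge gate, -0.36 and not called, was between -0.63 and 0.11 when a library was left out, with 0.11 without 4 h. Of the other values of named genes under the alternatives, 957 kept direction and side of the threshold, 25 lost a call and 7 gained one. No paired analysis was possible because each time point is 1 library, which leaves no second sample of a time point to pair. The contrasts with the gates had the library as a block. With single libraries, counting intervals do not cover the spread between mice, and levels near those of the T cell gate cannot be told from free RNA at this depth.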

Other observations

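Metallothionein genes varied in IFE basal cells without a 2-fold step at most times. Mt1, which encodes a zinc-binding protein, was at 3663, 5314, 2292, 1773, 2168 and 3964 CPM and Mt2 at 1733, 1699, 1121, 746, 963 and 1929 CPM, both lowest at 2 d, and in the T cell gate Mt1 was at 839, 644, 293, 470.4, 466 and 1072 CPM. Slc39a10, a zinc importer gene, was at 19.1, 86.02, 10.1, 20.9, 16.7 and 24.5 CPM, with the 4 h library the only one at least 2-fold above 0 h. Of 11 antioxidant and metallothionein genes measured at 4 h, 2 were at least 2-fold higher and 1 lower, near or below the shares of all genes.

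Among early differentiation genes, Fabp5, which encodes a fatty acid-binding protein, was at 56.6, 359, 238, 228, 158 and 234 CPM, above 0 h in every later library, and Sfn, which encodes 14-3-3σ, was at 8587, 12261, 5959.9, 5601, 6206 and 5542 CPM. The T cell gate held Fabp5 at 283, 1013, 657, 1132, 797 and 733 CPM, and the part of free RNA in its level was not tested. Of 17 such genes 3 were at least 2-fold higher, fewer than the share of all genes, and 5 lower at 4 h. Among matrix and protease genes Timp3, which encodes a metalloproteinase inhibitor, was at 136, 22.1, 64.2, 76.6, 64.6 and 87.1 CPM and Adamts1 at 135, 24.4, 38.2, 64.5, 36.7 and 131 CPM, both lowest at 4 h. The hypoxia-responsive gene Bnip3 was at 43.7, 7.41, 15.9, 62.5, 63.6 and 47.02 CPM and lowest at 4 h, while the lactate dehydrogenase gene Ldha was at 288, 833, 511, 593, 590.4 and 489 CPM and highest at 4 h. Of 19 glycolysis and hypoxia genes 3 were at least 2-fold higher and 2 lower at 4 h, below the shares of all genes (22.7% higher and 15.0% lower). At 16 h 0 were higher and 4 of 19 lower, against 5.24% lower of all genes. In the libraries from 2 d to 6 d 4, 4 and 3 of 21 were higher, above the 2.06, 2.45 and 1.37% of all genes. The medians there were 0.28, 0.52 and 0.44. In the same libraries 1, 2 and 1 were lower, against 4.64, 4.07 and 1.32% of all genes.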
